A study of Mus musculus with 7 samples.

Results

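A set of 8 enzyme genes of sugar, creatine and arginine metabolism were followed in whole kidneys of mouse embryos: Pck1, Pck2, Fbp1, Pcx, Khk, Miox, Gatm and Ass1. They were chosen by name with earlier results of these data known, so their counts beside shares of all genes only describe them. All 8 are among the 16167 genes of the deposited expression table. RNA from E15.5 kidneys was sequenced in 7 libraries. The 4 mutant libraries are labelled Six2-Cre; Irx3/5(loxP/loxP), that is, both copies of the Iroquois homeobox genes Irx3 and Irx5 floxed, together with a Cre recombinase under the name of Six2, a gene of nephron progenitors. The 3 control libraries are labelled Irx3/5(loxP/+), in which 1 of the 2 copies is floxed; they were littermates, and a genotype tag calls them WT. All 7 thus carry at least 1 floxed allele. The control labels name no Cre, so effects of the Cre transgene and of the deletion cannot be told apart. How many embryos went into a library is not given in the sources used here, and p-values therefore measure the spread between these libraries, which may in part be technical.

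Gluconeogenesis is the making of glucose from smaller molecules such as lactate and glutamine. Outside the liver, the kidney proximal tubule is its main site in the adult. Pyruvate carboxylase (Pcx) turns pyruvate into oxaloacetate in mitochondria, a phosphoenolpyruvate carboxykinase (cytosolic Pck1 or mitochondrial Pck2) turns oxaloacetate into phosphoenolpyruvate, and fructose bisphosphatase (Fbp1) removes a phosphate further up the chain. Ketohexokinase (Khk) phosphorylates fructose, and myo-inositol oxygenase (Miox) opens the inositol ring, a step largely confined to the kidney. Glycine amidinotransferase (Gatm) makes the precursor of creatine. Argininosuccinate synthase (Ass1) takes the first step by which the proximal tubule turns citrulline into arginine. Proximal tubule cells descend from the Six2-expressing progenitors in which the Cre driver is active.

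The promoters of the carboxykinase pair are shown because Pck1 was lower in every mutant than in every control, whereas the Pck2 groups overlapped. The promoter of Fbp1 is shown because that gene had the lowest fold change of the 8 genes. Each run gives the 250 bases before the gene's RefSeq start on build GRCm38.p6, 5′ to 3′ along the gene's strand, with motif matches in capitals. The Pck1 window is chr2:173152823-173153072 (+ strand), the Pck2 window chr14:55540016-55540265 (+ strand) and the Fbp1 window chr13:62888283-62888532 (- strand).
Pck1: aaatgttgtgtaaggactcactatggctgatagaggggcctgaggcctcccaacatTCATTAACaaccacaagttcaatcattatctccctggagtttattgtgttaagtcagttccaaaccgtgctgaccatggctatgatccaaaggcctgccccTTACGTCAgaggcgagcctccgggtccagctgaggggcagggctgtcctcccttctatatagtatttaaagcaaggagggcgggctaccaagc
Pck2: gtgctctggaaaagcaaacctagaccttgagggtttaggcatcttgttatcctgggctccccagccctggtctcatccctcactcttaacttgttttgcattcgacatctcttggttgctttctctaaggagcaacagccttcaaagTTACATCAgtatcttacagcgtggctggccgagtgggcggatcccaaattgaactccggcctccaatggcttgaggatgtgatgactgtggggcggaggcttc
Fbp1: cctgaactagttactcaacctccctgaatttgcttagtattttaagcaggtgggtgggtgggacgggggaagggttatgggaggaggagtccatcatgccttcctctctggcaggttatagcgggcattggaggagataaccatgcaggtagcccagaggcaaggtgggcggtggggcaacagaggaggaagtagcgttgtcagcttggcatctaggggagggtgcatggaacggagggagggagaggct
A set of 7 motifs, chosen after the windows had been seen, was searched on both strands. The 8 genes have 9 RefSeq windows, Pcx having 2 of them, and each window of 300 bases reaches 50 bases past the start. A cAMP response element (TGACGTNA) was matched in the Pck1 window alone of the 9, with its first base at position -93, and stood in 2.93% of all 32851 promoter windows. The HNF1 motif (GTTAATNA) was also matched in the Pck1 window alone, at position -194, and stood in 2.54% of all windows. The promoter of the rat Pck1 gene is known for a cAMP response element and an HNF1 site. The ATF4 element (TGATGNAA), bound in the response to amino acid shortage, was matched in the Pck2 window alone, at position -103 (3.97% of all windows). The Fbp1 window held none of the 7. An E-box CACGTG lay in the Khk, Ass1 and first Pcx windows (7.15% of all windows) and TATAAA in the Miox window (13.6%). The HNF4 letters CAAAGTCCA (0.475%) and the Iroquois letters ACANNTGT (7.38%) were matched in none of the 9. No 2 matches overlapped, and a match or its lack in these windows describes letters and not binding.

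Values are FPKM, fragments per kilobase of gene with a scaling for each library, as the authors gave them. Log2 fold changes set mutants against controls in log2(FPKM + 1), from a limma fit over 13466 genes with at least 1 FPKM in at least 3 libraries, and genes with an adjusted p under 0.05 were called changed. Recovered reads per library ran from 45539155 to 53497462 in mutants and from 40511920 to 69028943 in controls. Irx3 stood at 3.99 to 6.75 FPKM in mutants and 12.7 to 14.7 FPKM in controls (exact permutation p = 0.0286, two-sided, the smallest that the 35 splits allow), and Irx5 at 0.895 to 2.05 FPKM in mutants and 1.36 to 1.59 FPKM in controls (exact permutation p = 0.886). The deleted stretch of each gene is not given in the sources used here, so whole-gene FPKM of Irx5 is no check of the labels. Mutant replicate 3 stood apart in its globins: embryonic Hbb-y was 10.5% of adult Hbb-bs there, 1.38% to 2.24% in the other mutants and 1.34% to 3.45% in the controls.

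Of the 4 gluconeogenic genes, Pcx, Pck1 and Fbp1 were lower in every mutant library than in every control, as were 8.61% of all genes tested by limma, and Pck2 was not. In whole kidneys fewer cells of a type and less RNA per cell cannot be told apart. Pcx (ENSMUSG00000024892.18) stood at 7.40, 6.04, 6.99 and 6.27 FPKM in mutant replicates 1 to 4, against 10.3, 10.6 and 8.27 FPKM in control replicates 1 to 3. The mutants lay within a narrow band below the lowest control, and their mean was 68.6% of the control mean. Pck1 (ENSMUSG00000027513.12) stood at 3.66, 2.45, 1.05 and 2.14 FPKM in the mutants and at 5.40, 4.46 and 4.27 FPKM in the controls. Its mutant mean was 49.4% of the control mean, and mutant replicate 3 was the lowest library. Fbp1 (ENSMUSG00000069805.11) stood at 3.94, 1.83, 0.995 and 1.63 FPKM in the mutants and at 6.74, 8.003 and 5.52 FPKM in the controls, so that the mutant mean was 31.1% of the control mean. The lowest Fbp1 library, mutant replicate 3, rested on 78 reads, and the highest, control replicate 2, on 815. Pck2 (ENSMUSG00000040618.8), the mitochondrial carboxykinase, stood at 14.2, 13.9, 13.5 and 13.1 FPKM in the mutants and at 12.4, 11.9 and 13.5 FPKM in the controls. The Pck2 groups overlapped, with 2574 to 4016 reads per library, and its mutant mean was 108.5% of the control mean. An antisense gene, Gm10876, overlaps Pck2 and is not among the genes listed in the deposited table. Because no source used here says whether counting used strand, reads of the pair cannot be told apart.

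**Figure D1:**
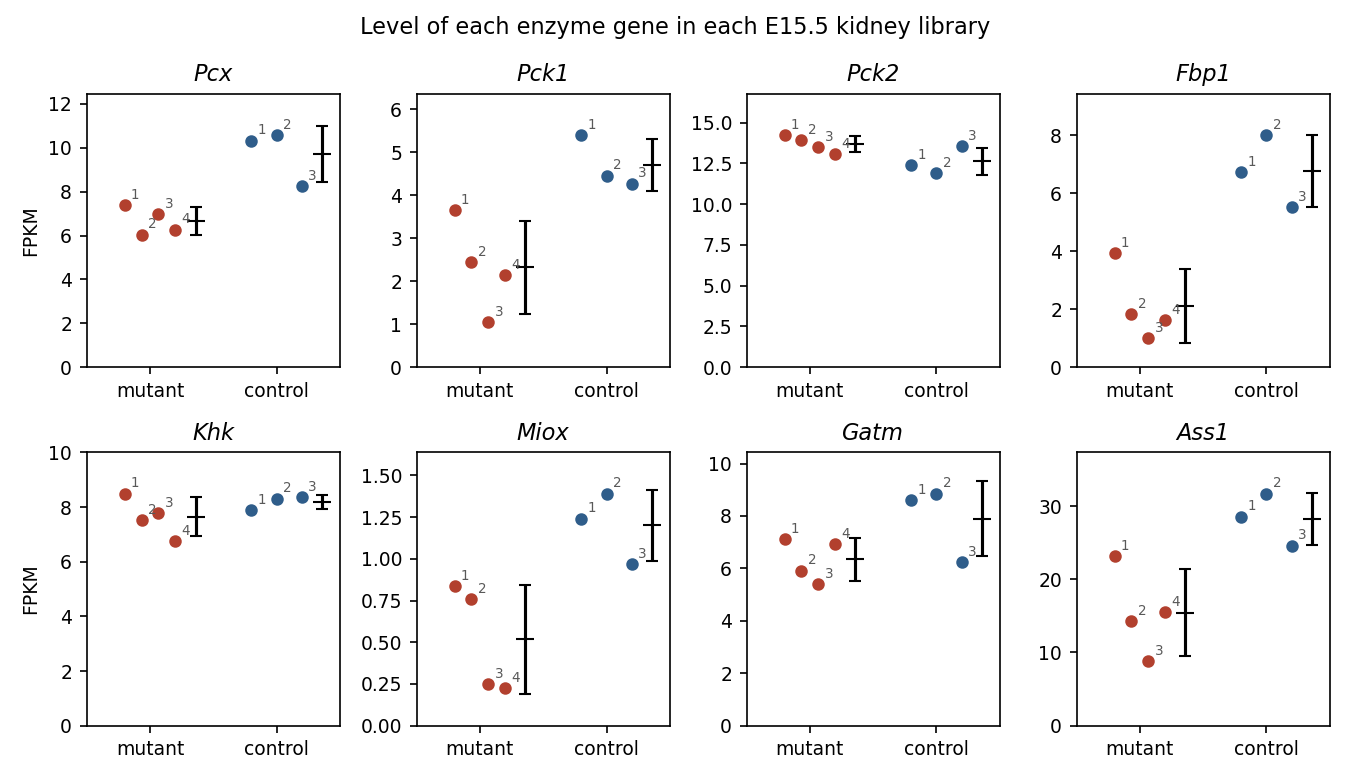
FPKM of the 8 genes in each library, with mutants at the left and controls at the right of each panel; numbers are replicate numbers, and the bar beside the points gives the mean and 1 SD (n = 4 mutants, n = 3 controls). The mutant points of Pcx, Pck1, Fbp1, Miox and Ass1 all lie below the control points, while those of Pck2, Khk and Gatm overlap with them.

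Whether these differences passed depended on the test. In the limma fit 0 of the 7 genes tested passed, where 1.53% of all 13466 genes did and 1.05% passed as lower; 4 of the 7 (Fbp1, Pcx, Pck1 and Ass1) had an unadjusted p under 0.05 and were lower. Of all genes 13.7% had such a p, and 8.48% had it and were lower. For Fbp1 the fitted change was -1.39 (SE 0.28) on the log2 scale, for Pcx -0.48 (SE 0.10) and for Pck1 -0.84 (SE 0.24), with limma adjusted p of 0.0701, 0.0617 and 0.158. For Pck2 it was 0.11 (SE 0.07), with a limma adjusted p of 0.562 and a 95% interval of -0.04 to 0.26. In the authors' deposited table, 4 of the 8 genes fell at an adjusted p under 0.05, where 5.49% of the 16153 genes with a p-value passed and 3.74% fell: Fbp1 (adjusted p = 0.000211), Pcx (0.000718), Ass1 (0.0117) and Pck1 (0.025). In the limma fits that left out 1 library, 0 of the 7 genes tested passed in 6 of 7 cases. For Fbp1 the limma adjusted p was 0.269 without control replicate 2. Without mutant replicate 1 the same 4 passed as lower, with adjusted p of 0.00755 for Fbp1, 0.0363 for Pcx, 0.0434 for Pck1 and 0.0494 for Ass1; 3.57% of all genes were then called and 2.74% called lower. With array weights, which give libraries that depart from their group less weight, these 4 passed too (9.67% of all genes called, 6.45% as lower). By limma-voom on the recovered reads Fbp1 and Pcx passed as lower (adjusted p = 0.0402 and 0.0447; 1.85% of all genes called, 1.37% as lower).

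**Figure D2:**
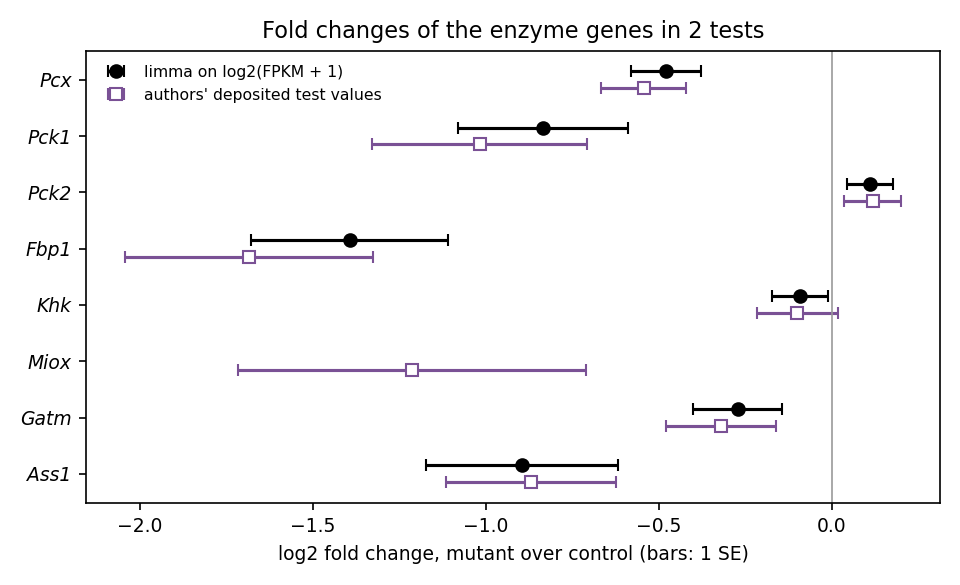
Log2 fold change of each gene, mutant over control, with bars of 1 SE. Filled circles are the limma fit on log2(FPKM + 1) and open squares the authors' deposited values; Miox has only the deposited value, of -1.22. Fbp1 lies farthest below 0 in both, at -1.39 and -1.69, and Pck2 alone lies above 0.

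Of the fructose and inositol genes, Miox was lower in every mutant and Khk overlapped between the groups. Khk (ENSMUSG00000029162.16), the fructokinase, stood at 8.49, 7.53, 7.79 and 6.76 FPKM in the mutants and at 7.89, 8.31 and 8.38 FPKM in the controls. The groups overlapped, and the log2 fold change of -0.09 had a 95% interval of -0.27 to 0.09 (limma adjusted p = 0.725). Miox (ENSMUSG00000022613.9) stood at 0.838, 0.756, 0.25 and 0.224 FPKM in the mutants and at 1.24, 1.39 and 0.97 FPKM in the controls. All mutants lay below all controls, with 13 reads in each of mutant replicates 3 and 4 and at most 98 in any library. Miox was the gene left out of the limma fit by the filter. An exact permutation test of its mean FPKM gave p = 0.0571 (two-sided, 35 splits), and the authors' deposited table gave a log2 fold change of -1.22 (SE 0.50) with an adjusted p of 0.173.

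Of the creatine and arginine genes, Ass1 was lower in every mutant and Gatm overlapped between the groups. Ass1 (ENSMUSG00000076441.10) stood at 23.2, 14.3, 8.81 and 15.55 FPKM in the mutants and at 28.6, 31.7 and 24.6 FPKM in the controls. Mutant replicate 1 came close to the lowest control, the mutant mean was 54.7% of the control mean, and its fitted log2 change was -0.90 (SE 0.28), with a limma adjusted p of 0.196. Gatm (ENSMUSG00000027199.15) stood at 7.12, 5.92, 5.39 and 6.93 FPKM in the mutants and at 8.61, 8.85 and 6.25 FPKM in the controls. Control replicate 3 lay among the mutants, and its fitted log2 change was -0.27 (SE 0.13), with a limma adjusted p of 0.411 and a 95% interval of -0.56 to 0.02. In all, 5 of the 8 genes had every mutant below every control, Miox, outside the limma fit, among them, against 8.61% of all genes tested; 0 had every mutant above every control, against 5.93% of all genes tested.

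On the FPKM scale, which is per length, the order of the 8 genes differed between the groups. In mutants it ran Ass1, Pck2, Khk, Pcx, Gatm, Pck1, Fbp1 and Miox, with means of 15.46 ± 5.93, 13.7 ± 0.50, 7.64 ± 0.71, 6.67 ± 0.63, 6.34 ± 0.83, 2.33 ± 1.08, 2.10 ± 1.28 and 0.517 ± 0.325 FPKM (SD, n = 4). In controls it ran Ass1, Pck2, Pcx, Khk, Gatm, Fbp1, Pck1 and Miox, with means of 28.3 ± 3.55, 12.6 ± 0.83, 9.72 ± 1.27, 8.19 ± 0.27, 7.90 ± 1.43, 6.76 ± 1.24, 4.71 ± 0.60 and 1.20 ± 0.21 FPKM (SD, n = 3). Ass1 and Pck2 did not overlap in the controls and overlapped in the mutants. Neighbours from Khk to Gatm in the mutants and from Pcx to Fbp1 in the controls had overlapping ranges, as had Pck1 and Fbp1 in the mutants.

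Of the 5 genes that were lower in every mutant, all but Pcx also varied widely among the mutant libraries. The highest mutant library held 3.96 times the Fbp1 FPKM of the lowest, 3.74 times for Miox, 3.50 times for Pck1 and 2.63 times for Ass1. The same ratio among mutants was 1.32 for Gatm, 1.26 for Khk, 1.23 for Pcx and 1.09 for Pck2, and among controls it stayed between 1.06 and 1.45 for all 8 genes. Mutant replicate 1 was the highest mutant for 8 of the 8 genes, and mutant replicate 3 the lowest for 4, Fbp1, Pck1, Ass1 and Gatm. Such ranks were not counted over all genes. For comparison, the mean log2(FPKM + 1) was taken over the tested genes of each of the 9 related lists described below. Among mutants it was also highest in mutant replicate 1, except for the biotin-dependent carboxylases and the proximal tubule regulators. That rank was thus not particular to the 8 genes. Proximal tubule markers moved with these libraries: the mean of 25 tested markers (of 29 with values, summing to 193 to 298 FPKM in mutants and 358 to 400 FPKM in controls) on the log2(FPKM + 1) scale was 3.11, 2.93, 2.44 and 2.90 in mutant replicates 1 to 4 and 3.61, 3.57 and 3.42 in control replicates 1 to 3. Of those 25 markers, 4 fell in the limma fit (Slc22a6, Slc3a1, Apom and Acsm2) and 21 did not pass, where 1.05% of all genes fell. The median log2 fold change of the 25 was -0.58, against -0.00201 over all genes tested. The part that the amount of proximal tubule and the stage of the embryos have in these results was not tested. With the log2 ratio of Hbb-y to Hbb-bs as a covariate, Fbp1 and Pck1 passed as lower (limma adjusted p = 0.0251 and 0.0472; 2.03% of all genes called, 1.53% as lower), and without mutant replicate 3 the log2 fold changes of Fbp1, Pck1 and Ass1 were -1.21, -0.62 and -0.67.

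**Figure D3:**
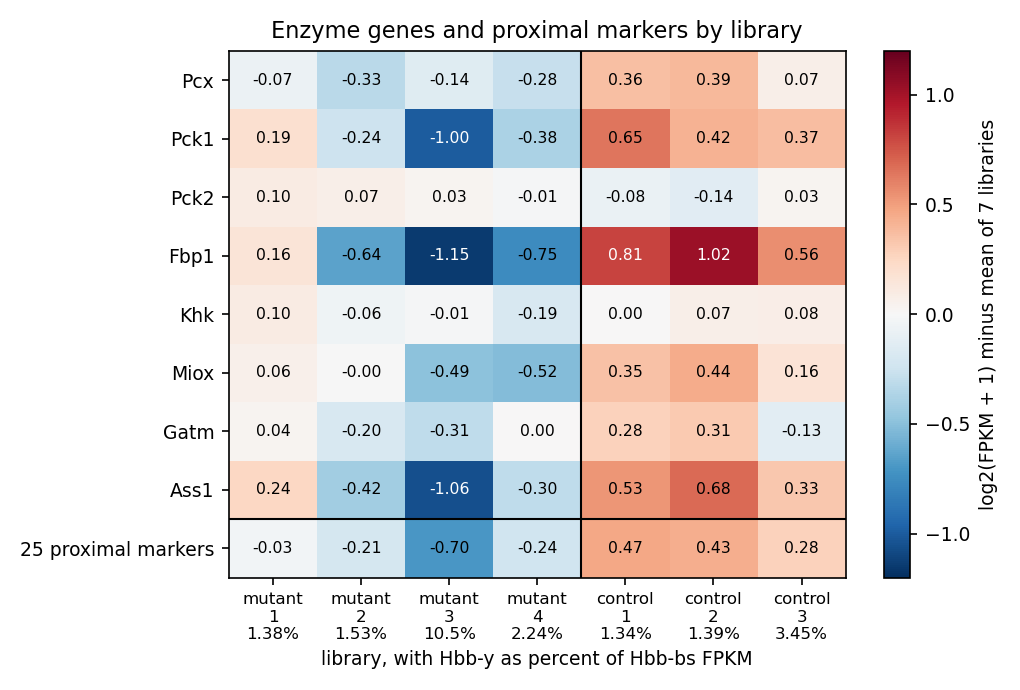
Log2(FPKM + 1) of each gene, and the mean of the 25 proximal markers, in each library, minus the mean of the 7 libraries; red is higher and blue lower, and the percentage under each library is Hbb-y relative to Hbb-bs FPKM. Fbp1, Ass1 and Pck1 are lowest in mutant replicate 3, the library with 10.5% Hbb-y, as is the marker mean, while Pck2 and Khk vary little.

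Set against the proximal markers of the same library, the 7 tested genes took different courses, described here without a test. The value is a gene's log2(FPKM + 1) minus the mean of the 25 markers. Fbp1 was lower relative to the markers, at -0.81, -1.43, -1.45 and -1.51 in the mutants and -0.66, -0.40 and -0.71 in the controls, and the groups did not overlap. Pck1 overlapped between the groups, with means of -1.17 in mutants and -1.02 in controls, as did Ass1 (1.12 and 1.33) and Pcx (0.09 and -0.12). Relative to the markers, Pck2 was higher in every mutant, at 0.82, 0.97, 1.41 and 0.92, than in the controls, at 0.14, 0.12 and 0.44. Khk and Gatm were likewise higher relative to the markers in every mutant, with means of 0.26 and 0.02 in mutants and -0.33 and -0.39 in controls. The marker mean itself differed by -0.69 (mutant minus control), so any gene with little change in FPKM comes out higher on this scale. How many of all genes do so was not counted.

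**Figure D4:**
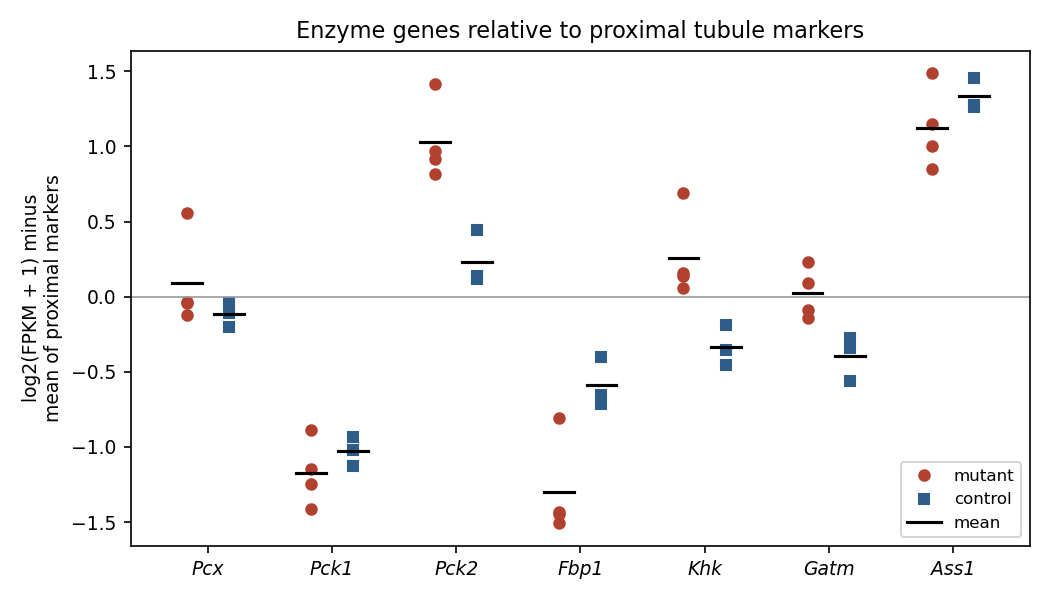
Log2(FPKM + 1) of the 7 tested genes minus the mean of 25 proximal tubule markers in the same library; circles are mutants, squares controls and bars group means. Pck2, Khk and Gatm lie above the controls in every mutant, Fbp1 lies below them, and Pcx, Pck1 and Ass1 overlap.

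Partner enzymes were compared within each library as log2 ratios of (FPKM + 1), with exact permutation tests over 35 splits (two-sided) that were adjusted over the 3 ratios. The ratio of cytosolic Pck1 to mitochondrial Pck2 was -1.71, -2.12, -2.82 and -2.17 in the mutants and -1.07, -1.24 and -1.46 in the controls. It was lower in 4 of 4 mutants than in any control, by a mean of -0.95, with an exact permutation p of 0.0571 (adjusted 0.0571). Ass1 over Asl, the lyase that completes arginine synthesis, was 1.02, 0.70, 0.13 and 0.83 in the mutants and 1.48, 1.60 and 1.27 in the controls. All 4 mutants again lay below the controls (difference -0.78, exact permutation p = 0.0571, adjusted 0.0571), with Asl itself at 8.91 ± 1.38 FPKM in mutants and 9.67 ± 0.12 FPKM in controls (SD, n = 4 and 3; limma adjusted p = 0.728). Gatm over Gamt, the methyltransferase that finishes creatine, was -0.64, -0.30, -0.35 and -0.33 in the mutants and -0.12, -0.10 and -0.25 in the controls. The difference of -0.25 had the smallest p the design allows (exact permutation p = 0.0286, adjusted 0.0571), and 0 of the 3 ratios passed after adjustment.

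Genes with the most similar profile were found for Fbp1, Ass1 and Pck1, the 3 of the 7 genes in the limma fit with the largest absolute fold change there, by the root mean square difference of centred log2(FPKM + 1) values over the 7 libraries. Near to Fbp1 were the amino acid transporter gene Slc7a13 (0.117) and Sod3, which encodes extracellular superoxide dismutase (0.143). Nearest to Ass1 were Serpinf2, encoding antiplasmin (0.0595), Sostdc1, encoding an antagonist of BMP and Wnt signals (0.0859), and the peptidase gene Ggt1 (0.0944). Nearest to Pck1 were Susd2 (0.0841), the monooxygenase gene Fmo1 (0.09) and the aspartoacylase gene Aspa (0.118). Among these genes, Slc7a13 was called lower by limma, at 0.406 to 2.02 FPKM in mutants and 3.56 to 5.05 FPKM in controls (limma adjusted p = 0.0424). Ass1 ranked 9th by this measure for Pck1 and Pck1 11th for Ass1, at a difference of 0.133, whereas Pck2 ranked 8863rd for Pck1 (0.567).

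Other genes of glucose making had fold changes below 0 in 21 of 23 cases, against 50.8% of all genes tested, without passing the test. Of the 23 tested, 0 passed, 8 had an unadjusted p under 0.05 and the median log2 fold change was -0.15; 2 of them, Fbp2 and Glud1, fell in the authors' deposited table. Fbp2, the muscle form of the bisphosphatase, stood at 2.06 ± 0.76 FPKM in mutants and 4.61 ± 0.63 FPKM in controls (limma adjusted p = 0.0694). Glud1, glutamate dehydrogenase, which feeds glutamine carbon into the pathway, stood at 85.3 ± 8.33 FPKM in mutants and 106 ± 6.30 FPKM in controls (limma adjusted p = 0.141). G6pc, the glucose phosphatase of the last step, was near the floor of the table in both groups, at 0.036 to 0.192 FPKM in mutants and 0.267 to 0.36 FPKM in controls, on 4 to 52 reads.

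In fructose and polyol handling 1 of 10 tested genes fell (1.05% of all genes tested did), 0 rose and 9 did not pass. Their median log2 fold change was -0.35. The gene that fell was Glyctk, the glycerate kinase of fructose breakdown, at 2.94 ± 0.69 FPKM in mutants and 5.54 ± 0.46 FPKM in controls (limma adjusted p = 0.0435). In the authors' deposited table Tkfc, the triokinase of fructose breakdown, Sord and the fructose transporter gene Slc2a5 fell as well (4 of 12, against 3.74% of all genes).

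None of the tested genes of inositol and glucuronate handling (13), creatine handling (8), arginine and citrulline handling (15) or the biotin-dependent carboxylases (9) passed limma. At an unadjusted p under 0.05 these lists held 3, 4, 5 and 2 genes, where 13.7% of all genes had such a p. Their median log2 fold changes were -0.10, -0.03, 0.02 and -0.10. Xylb, the xylulokinase downstream of Miox, stood at 6.42 ± 0.80 FPKM in mutants and 9.38 ± 1.09 FPKM in controls (limma adjusted p = 0.0714) and fell in the authors' deposited table (adjusted p = 0.00192). Rgn, regucalcin, an enzyme of vitamin C synthesis in mice, stood at 3.58 ± 0.26 FPKM in mutants and 2.44 ± 0.42 FPKM in controls, with every mutant above every control (limma adjusted p = 0.0787), and rose in the authors' deposited table (adjusted p = 0.0286). Arg2, mitochondrial arginase, and Oat, ornithine aminotransferase, had values above all controls in every mutant. Their means were 7.14 ± 0.59 and 63.9 ± 3.09 FPKM in mutants and 5.55 ± 0.29 and 54.4 ± 1.70 FPKM in controls (limma adjusted p = 0.0953 and 0.12). In the authors' deposited table Oat rose (adjusted p = 0.031) and Arg2 did not pass (adjusted p = 0.0637). Pcca, a propionyl-CoA carboxylase subunit that uses biotin as Pcx does, stood at 4.94 ± 0.15 FPKM in mutants and 5.67 ± 0.28 FPKM in controls (limma adjusted p = 0.307).

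Among 28 other proximal tubule enzyme genes tested, 2 fell (1.05% of all genes tested did), 0 rose and 26 did not pass. Their median log2 fold change was -0.29, and 28 of 28 fold changes were below 0, against 50.8% of all genes tested. Those that fell were the medium-chain acyl-CoA synthetase genes Acsm1 and Acsm2, with log2 fold changes of -1.10 (SE 0.15) and -0.90 (SE 0.13) and limma adjusted p of 0.0156 and 0.0191. Acsm2 is also among the 25 markers. They are close relatives, and their counts are uncertain where reads could fit either. Of 25 regulators tested, 1 fell, the vitamin D receptor gene Vdr, at 1.59 ± 0.24 FPKM in mutants and 2.90 ± 0.31 FPKM in controls (limma adjusted p = 0.0333). Hnf4a, a nuclear receptor gene of the proximal tubule that is also among the 25 markers, stood at 21.3 ± 3.52 FPKM in mutants and 30.9 ± 1.38 FPKM in controls (limma adjusted p = 0.0783). It fell in the authors' deposited table (adjusted p = 0.00313), as did 7 of 26 regulators in all, where 3.74% of all genes fell. Of 19 ATF4 targets tested 0 passed limma, 4 had an unadjusted p under 0.05 (13.7% of all genes had) and the median was 0.01. Cebpb, a transcription factor gene that is also among the 25 regulators, stood at 0.875 ± 0.321 FPKM in mutants and 2.30 ± 0.94 FPKM in controls (limma adjusted p = 0.112) and fell in the authors' deposited table (adjusted p = 0.00625). Ddit3, a transcription factor gene of the stress response, stood at 7.86 ± 0.49 FPKM in mutants and 6.70 ± 0.21 FPKM in controls, with every mutant above every control (limma adjusted p = 0.224). The others with such a p were Ddit4, an inhibitor of mTOR signalling, with a log2 fold change of 0.31, and Phgdh, of serine synthesis, with -0.20. Asns, asparagine synthetase, stood at 8.50 ± 1.04 FPKM in mutants and 7.91 ± 0.42 FPKM in controls.

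**Figure D5:**
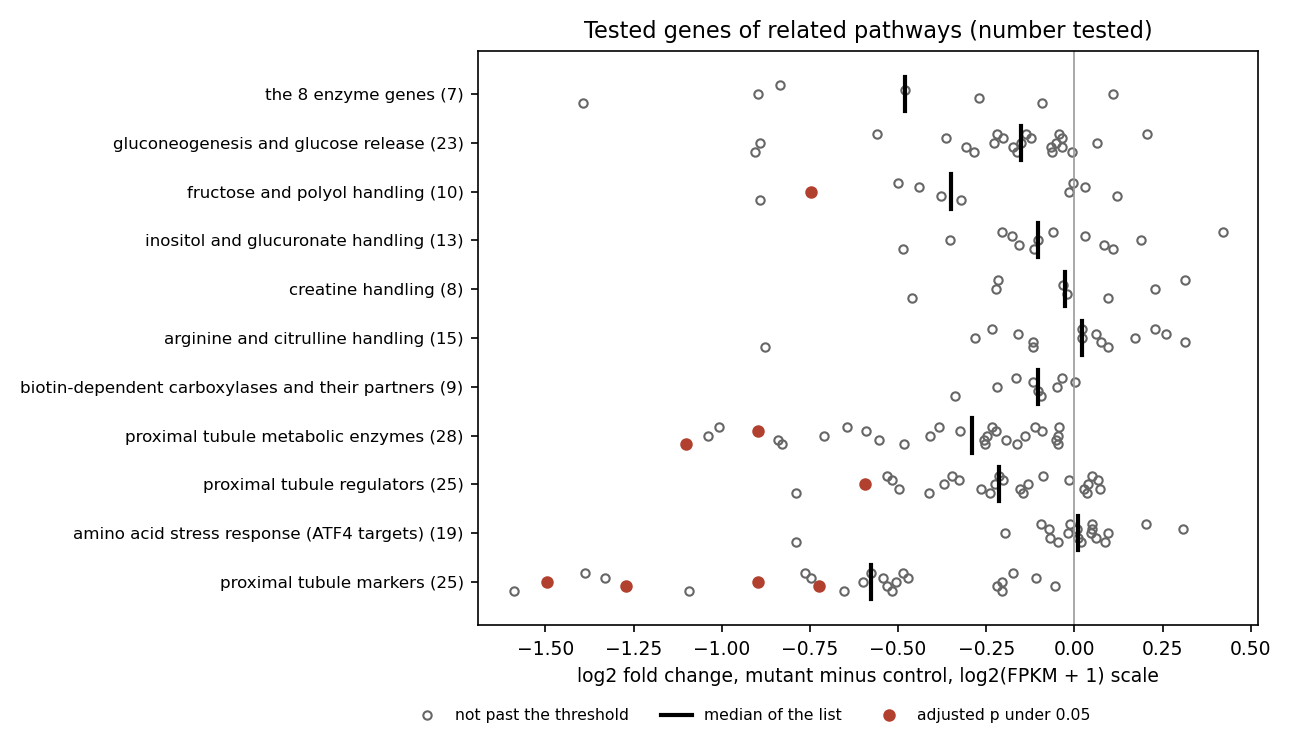
Log2 fold change, mutant minus control, of each tested gene of the 8 enzyme genes, 9 related lists and the proximal tubule markers; filled points have an adjusted p under 0.05 and black bars are medians. The medians run from -0.58 for the markers to 0.02 for arginine and citrulline handling, and the 8 enzyme genes spread from Fbp1 at -1.39 to Pck2 at 0.11.

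Several of the 8 genes are also expressed in liver, and Pcx and Pck1 in fat. Of 19 liver markers 14 had values, summing to 18.1 to 57.6 FPKM in mutants and 30.4 to 36.1 FPKM in controls, and 0 of the 6 tested passed limma (1 at an unadjusted p under 0.05 and 0 in the authors' deposited table). The median of those 6 log2 fold changes was 0.61, and 5 of 6 were above 0. The liver sum overlapped between the groups, and its highest library was mutant replicate 4. The defining liver gene Alb was at 1.55 to 12.2 FPKM in mutants and 0.195 to 3.80 FPKM in controls. Of the fat markers Fabp4, which endothelium also expresses, and Lipe had values, and 0 of the 2 passed limma (0 at an unadjusted p under 0.05 and 0 in the authors' deposited table). In other nephron segments 3 of 12 loop and distal markers fell and 1 rose, and 4 of 9 podocyte markers fell. Their medians were -0.65 and -0.43. Of 12 stroma markers 2 rose and 0 fell, with a median of 0.28. Of all 13466 genes tested, 142 fell (1.05%) and 64 rose. Skeletal muscle markers, 6 with values, summed to 8.41 to 9.65 FPKM in mutants and 9.17 to 79.9 FPKM in controls. The highest sum was in control replicate 1. The part of these other cell types in the results was not tested.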

How the data were processed

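RNA-seq of whole E15.5 kidneys (4 mutants, 3 controls; groups and replicate numbers from the titles) was deposited as 1 table, in which the authors gave FPKM for each library and the outcome of their DESeq2 test. The authors used HTSeq 0.6.1p2, STAR 2.6.0c, DESeq2, FastQC 0.11.5 and Trim Galore 0.5.0, with build mm39, per the submitters' processing notes; gene lengths and the strand setting of the counting are not given in the sources used here. Per the file headers, the deposited fold changes are log2 values, the deposited p-values come with adjusted p-values, the test statistic is a score, and baseMean is a signal that the authors made as the mean of normalized counts; these were copied. Taken to share 1 scaling per library, FPKM and baseMean gave back reads within 0.05 of whole numbers for 100% of values. The lowest listed mean count was 18.5. Pck2 overlaps an antisense gene, Gm10876, in GENCODE M21.

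The main test was limma 3.58.1 (R 4.3.3; trend and robust, Benjamini-Hochberg, threshold 0.05, pseudocount 1 FPKM). The fit left out 2701 genes with low values and was tested on simulated data. Alternatives were a pseudocount of 0.1, other filters (none, 5 FPKM), other scalings, limma settings, limma-voom on recovered reads, the deposited test, a replicate block, a globin covariate and leaving out each library. Named beside the 8 genes were partner enzymes, globin genes and the 3 nearest profiles. Each list added up to 4 changed genes or the 2 with the lowest p. Tkfc, Sord, Slc2a5, G6pc, Hnf4a, Asns, Ddit4, Phgdh, Alb, Fabp4 and Lipe were added after seeing values where the list rule did not name them. Some genes that this rule names are not reported here. The 8 genes and all lists were chosen with earlier results of these data known. Plots were drawn with matplotlib 3.10.9, and tables made with pandas 2.3.3 and numpy 2.4.6 under Python 3.11.15. Promoters came from RefSeq (GRCm38.p6), all 8 genes matched by symbol, and no other coordinates were used.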

Additional observations from a re-analysis of the deposited data

Results flagged for a closer look

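In 10 of the 74 sets of 4 mutant values checked, 1 library lay far from the other 3, by the gap to its nearest neighbour as a share of the whole range (above Dixon's 95% critical value). Chance gives about 1 in 20 independent sets. These sets share libraries and values, such as Hbb-y and the marker mean, so their count cannot be set against that rate. Mutant replicate 3 stood apart for Hbb-y at 149 FPKM against 27.0 to 39.7 FPKM in the other mutants (0.897), for Hbb-y as a percentage of Hbb-bs (0.906), and, on the low side, for Xylb at 5.23 against 6.79 to 6.85 FPKM (0.966) and Pcca at 4.72 against 5.00 to 5.03 FPKM (0.9). The same library was the high one for Khk (0.841) and Pcx (0.879) relative to the proximal markers. Mutant replicate 1 stood apart for Asl at 11.0 against 7.95 to 8.43 FPKM (0.841), for the Gatm to Gamt ratio at -0.64 against -0.35 to -0.30 (0.849) and for Fbp1 relative to the proximal markers at -0.81 against -1.51 to -1.43 (0.893). Mutant replicate 2 was low for Mc2r, the adrenocorticotropin receptor gene, at 1.53 against 1.97 to 2.02 FPKM (0.887).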

How the results depend on the processing

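Of the 8 genes, 4 passed with array weights, 4 in the authors' deposited table, 2 by limma-voom on recovered reads (Fbp1 and Pcx) and 2 with the globin covariate. When single libraries were left out, 0 to 4 passed (0 in 6 of those 7 fits). All were lower, and the cause was not tested. Of these tests only the deposited one covered Miox, which the filter left out of the others. The count over all genes was 206, and it was 109 with a pseudocount of 0.1, 60 with a minimum of 5 FPKM (51.7% of them higher, against 31.1%), 1302 with array weights, 886 in the authors' deposited table and 15 to 481 without single libraries. Of the 143 related pathway genes tested by limma 4 passed, and 46 did with array weights, 11 with the globin covariate, 28 of 161 in the authors' deposited table, 1 with a minimum of 5 FPKM and 0 to 17 without single libraries. Same-numbered deviations had correlations of -0.16, 0.03 and 0.10, which are too few to show whether replicate numbers pair the samples. With the replicate block, which drops mutant replicate 4, 2 genes passed in all, 0 of the 8 (Miox not tested) and 0 of the pathway genes. Over all settings the log2 fold changes ran from -1.85 to -1.21 for Fbp1, -1.14 to -0.62 for Pck1, -1.11 to -0.67 for Ass1, -0.59 to -0.42 for Pcx, -0.41 to -0.19 for Gatm, -0.18 to -0.04 for Khk and 0.07 to 0.16 for Pck2; Pck1 was not tested with a minimum of 5 FPKM. Without single libraries the difference of Irx3 ran from -8.73 to -7.55 FPKM and that of the Gatm to Gamt ratio from -0.30 to -0.17, both then unable to reach p under 0.05 by exact permutation with so few libraries. The Irx5 difference ran from -0.146 to 0.238 FPKM and changed sign in 3 of the 7. Among the 8 genes Miox, on 13 to 98 reads, is the value most limited by depth.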
